A study of Mus musculus with 66 samples.

Results

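Kyat1 and 8 other genes of the kynurenine pathway were followed through dextran sulfate sodium (DSS) colitis and its repair in 66 bulk RNA-seq samples from 19 mice. The 9 genes were taken by name from 30452 genes with values, and they are represented by 42 of 88198 transcripts. The set was built around Kyat1, which was chosen by its measured level at day 3 against day 0 in mid-colon and rectum, so its values against day 0 in these sections are given as a description, with no test. The 8 others entered by name: Kyat3, Ido1, Ido2, Tdo2, Afmid, Kmo, Kynu and Haao.

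All mice were C57BL/6, bought at 6 weeks of age, and no group carried a transgene or a deletion. The cohort drank 3% DSS for 6 days from day 0 on. The 4 mice of day 0 were uninjured, and 3 mice each were taken at days 3, 6, 9, 14 and 20, so that the day 3 mice had not completed the DSS course. Mucosa was taken from mid-colon, rectum and anus of each mouse (19 samples a section), and from the squamous neo-epithelium of the distal colon at days 9, 14 and 20 (9 samples). Different mice stand behind each day, whereas sections of a day share mice.

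Kynurenines are the main breakdown products of tryptophan. Indoleamine 2,3-dioxygenases (Ido1, Ido2) or tryptophan 2,3-dioxygenase (Tdo2) open the indole ring, and arylformamidase (Afmid) releases kynurenine. Kynurenine aminotransferases (Kyat1, Kyat3) turn kynurenine into kynurenic acid, a ligand of the receptor Gpr35, while Kmo, Kynu and Haao lead towards quinolinic acid and NAD. Ido1 is a classical interferon-gamma target, and the Kyat1 enzyme also acts as glutamine transaminase K and as a cysteine conjugate beta-lyase. In the gut, kynurenines are known as ligands of the aryl hydrocarbon receptor.

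The genomic sequence upstream of the paralogs Kyat1 and Kyat3 is shown because the first was at 15.3% of its day 0 mean in mid-colon at day 3 while the second kept a range that overlapped with day 0. Each stretch holds the 250 bases before the gene start in RefSeq (GRCm38.p6), 5′ to 3′ on the gene's strand, chr2:30205848-30206097 on the minus strand for Kyat1 and chr3:142700798-142701047 on the plus strand for Kyat3. Capitals mark matches to any of 8 motifs, searched on both strands: the ETS core GGAAGT, a motif like the cyclic AMP response element TGANGTCA, the CCAAT box, the TATA box TATAAA, the nuclear receptor half-site AGGTCA, the antioxidant response core TGACNNNGC, the dioxin response core GCGTG and the interferon-gamma activated site TTCNNNGAA.
Kyat1: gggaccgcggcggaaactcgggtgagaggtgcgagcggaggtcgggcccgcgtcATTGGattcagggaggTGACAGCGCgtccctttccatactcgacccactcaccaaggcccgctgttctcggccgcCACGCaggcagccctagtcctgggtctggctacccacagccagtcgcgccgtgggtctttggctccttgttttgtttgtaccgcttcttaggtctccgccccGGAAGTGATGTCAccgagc
Kyat3: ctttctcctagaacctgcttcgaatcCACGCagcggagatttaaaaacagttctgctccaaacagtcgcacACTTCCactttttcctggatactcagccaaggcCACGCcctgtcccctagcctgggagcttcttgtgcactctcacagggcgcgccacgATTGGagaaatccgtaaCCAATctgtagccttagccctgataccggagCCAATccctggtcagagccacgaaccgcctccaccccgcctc

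The Kyat1 stretch held 1 match each to the ETS core, the cyclic AMP-like motif, the CCAAT box, the antioxidant core and the dioxin core. The ETS match lay 19 to 14 bases before the start and shared 1 base with the cyclic AMP-like match at 14 to 7 bases. The Kyat3 stretch held 3 matches to the CCAAT box, 2 to the dioxin core and 1 to the ETS core. The TATA box, the nuclear receptor half-site and the interferon-gamma site matched neither stretch. Of 27025 such windows of RefSeq genes, 20.0% held the ETS core, 7.6% the cyclic AMP-like motif, 34.5% the CCAAT box, 10.1% the antioxidant core and 28.2% the dioxin core. The 3 motifs without a match, in the order above, stood in 13.0%, 13.8% and 7.2% of them. G and C made up 64.4% of the Kyat1 stretch and 56.0% of the Kyat3 stretch, against a median of 52.0% over the windows. The RefSeq table gave such a sequence for 6 of the 9 genes, all but Ido1, Ido2 and Kynu.

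Levels are in TPM, a unit of transcript abundance that is scaled by transcript length and by the total of a sample, summed over the transcripts of a gene. Read depth is unknown, because the values carry no counts. Between 11268 and 13789 genes reached 1 TPM in a sample. The labelled tissues matched their defining markers: 10 colonocyte markers summed to 17839 to 20642 TPM in day 0 mid-colon and 15493 to 17840 TPM in day 0 rectum, and 8 squamous markers to 12344 to 28705 TPM in neo-epithelium. The labelled anus held squamous epithelium (11646 to 20361 TPM at day 0) but also skeletal muscle, whose 5 markers summed to 958 to 10877 TPM there against 1.08 to 8.96 TPM in neo-epithelium. The neo-epithelium also held colonocyte RNA on later days. Its level of the colonocyte marker Car1 was 0.242 to 89.4 TPM at day 9, 78.2 to 1231 TPM at day 14 and 440 to 1457 TPM at day 20. The marker Aqp8 was at 0.0619 to 0.489 TPM at day 9 and at 165 to 313 TPM at day 20. The part of this RNA in the neo-epithelial levels below was not tested. In bulk tissue, fewer cells of a type and less RNA per cell cannot be told apart.

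Kyat1 made up most of the summed RNA of the 9 genes in uninjured mucosa. In day 0 mid-colon it stood at 165, 175, 188 and 209 TPM, and in day 0 rectum at 126, 138, 129 and 157 TPM. These levels were 92.8% ± 0.975 (SD, n = 4) and 90.0% ± 0.931 (SD, n = 4) of the summed TPM of the 9 genes. In day 0 anus Kyat1 was at 96.6, 75.0, 66.1 and 72.2 TPM, below every day 0 sample of mid-colon and rectum.

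At day 3, still under DSS, Kyat1 was at 15.7, 27.6 and 41.3 TPM in mid-colon and at 12.2, 19.2 and 20.4 TPM in rectum. The means were 15.3% and 12.6% of day 0, and no day 3 sample came near a day 0 sample. At day 6, when DSS ended, the values were higher again, at 54.0, 63.4 and 25.8 TPM in mid-colon and 43.0, 48.7 and 52.3 TPM in rectum. The lowest means came at day 9, with 13.7, 9.14 and 19.5 TPM in mid-colon (7.66% of day 0) and 16.9, 6.96 and 16.6 TPM in rectum (9.82%). In rectum every day 6 sample lay above every sample of days 3 and 9. In mid-colon the ranges of days 3 and 6 overlapped, with mouse 10 of day 6 below 2 of the 3 day 3 samples, and days 3 and 6 were not compared by a test.

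At days 14 and 20 every sample lay above every day 9 sample of its section. Mid-colon held 124, 75.7 and 78.5 TPM at day 14 but 26.8, 53.5 and 60.7 TPM at day 20, and rectum 78.0, 35.2 and 43.3 TPM at day 14 and 19.6, 33.0 and 101 TPM at day 20. Every later sample of both sections stayed below every day 0 sample of its section. Ordered by mean, mid-colon ran from day 0 over days 14, 6, 20 and 3 down to day 9. Day 14 stood apart from its neighbours in that order, whereas the ranges of days 6 and 20, 20 and 3, and 3 and 9 overlapped. In rectum the order was days 0, 14, 20, 6, 3 and 9, and only the steps from day 0 to day 14 and from day 6 to day 3 were free of overlap.

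**Figure D1:**
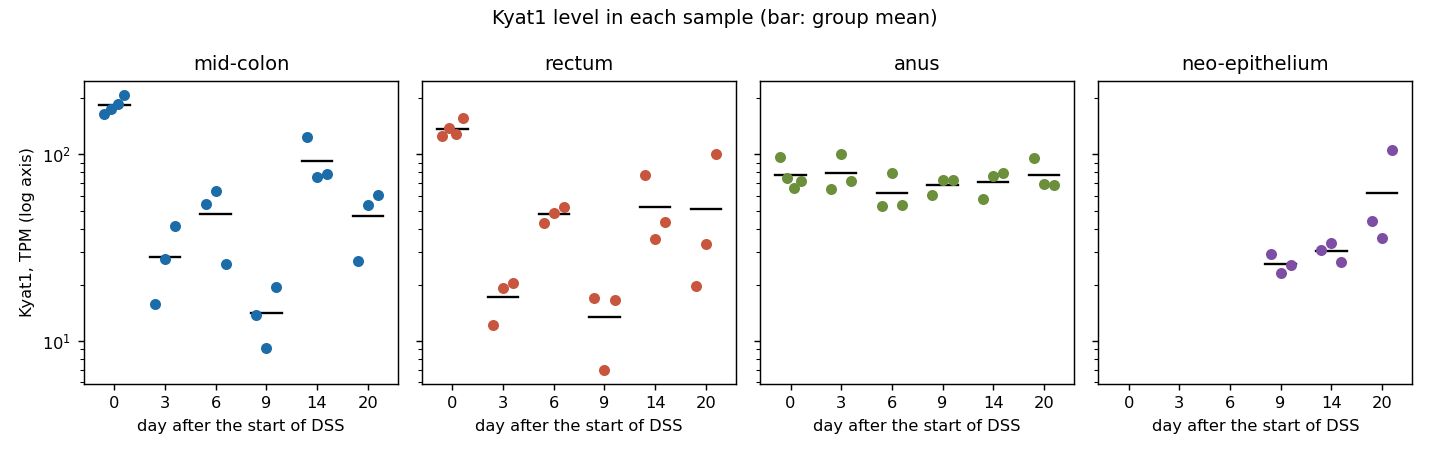
Kyat1 TPM (log axis) in each sample by section, against the day of the experiment, with a bar at each group mean. Mid-colon and rectum drop at days 3 and 9 and stay below day 0, while the anus keeps to 52.7 to 101 TPM on all days.

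The anus did not share this course. Its 19 samples lay between 52.7 and 101 TPM, and the range of each later day overlapped with that of day 0. None of the 5 days passed the test there, with log2 differences from -0.33 ± 0.20 (SE) at day 6 to 0.03 ± 0.20 (SE) at day 3 and adjusted p-values from 0.343 to 1.0 (limma, Benjamini-Hochberg over all genes tested). The colonocyte markers in the anus summed to 1332 to 4223 TPM at day 0, to 61.0 to 137 TPM at day 6 and to 53.6 to 73.9 TPM at day 9, while Kyat1 at day 9 was 60.7, 73.3 and 72.6 TPM. The anus samples also held squamous epithelium and skeletal muscle, and the part of each tissue in their Kyat1 level was not tested.

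Outside the anus, Kyat1 could be tested in the comparisons in which neither day 0 nor day 3 took part. In mid-colon it rose from day 9 to day 20 by 1.64 ± 0.36 (SE) on the log2(TPM + 1) scale, with an adjusted p of 0.0141. All 3 day 20 samples were above all 3 of day 9; without mouse 12, the lowest of day 9, the call was lost, and so it was when low genes were not filtered out (adjusted p = 0.0661). The differences of the same comparison in rectum, 1.61 ± 0.58 (SE), and in neo-epithelium, 1.06 ± 0.39 (SE), missed the threshold with adjusted p-values of 0.0866 and 0.0881. In the rectum the day 20 samples ranged from 19.6 to 101 TPM. Without mouse 17 the rectal difference passed with an adjusted p of 0.0446, and without mouse 18 that of the neo-epithelium with 0.0409.

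The neo-epithelium, a squamous layer that covers the healing distal colon, held Kyat1 at 29.3, 23.0 and 25.6 TPM at day 9, at 30.7, 33.4 and 26.5 TPM at day 14 and at 44.0, 35.6 and 106 TPM at day 20. Over these days Kyat1 was lower than in the anus of the same mice by -1.02 ± 0.18 (SE; log2, adjusted p = 1.86e-04, 9 samples a section). The difference from the rectum of the same mice was 0.24 ± 0.33 (SE) with an adjusted p of 0.587. The highest neo-epithelial value came from mouse 19, which also had the highest rectal value of day 20. The skeletal muscle markers named above differ between anus and neo-epithelium as well, and their part in the difference was not tested. The colonocyte RNA of the neo-epithelium on days 14 and 20 was not taken into account either.

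Most Kyat1 RNA was assigned to transcripts that share a first exon. The gene spans chr2:30185124-30205847 on the minus strand (GRCm38, GENCODE M21; ENSMUSG00000039648) and overlaps no other gene. Of its 8 transcripts with values, 5 begin in the first exon that ends at base 30205633, directly downstream of the sequence shown, though each at a base of its own, and these held a median of 97.2% of the gene's TPM (80.1% to 100% over the samples). The coding transcripts ENSMUST00000044038 and ENSMUST00000113662 had 36.7% and 41.6% in mid-colon, 37.8% and 41.5% in rectum, and 43.9% and 45.8% in anus. The non-coding ENSMUST00000148555 followed with 11.0% in mid-colon. ENSMUST00000044038 was low with the gene in mid-colon, going from a mean of 75.6 TPM at day 0 to means of 6.05 and 6.70 TPM at days 3 and 9.

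No other aminotransferase tested and no colonocyte marker stood as low as Kyat1 at day 3, but single colonocyte markers fell. Kyat1 was chosen by its day 3 level, so its place below them follows from that choice and supports nothing. Of 12 other aminotransferases, 9 were tested, and at day 3 none was called in mid-colon or rectum (limma), with 0 and 1 of them at an unadjusted p under 0.05. Their median log2 change was 0.01 in mid-colon and -0.09 in rectum, beside 0.14 and -0.06 over all genes tested. Got1, the cytosolic aspartate aminotransferase, had a mean of 62.5 TPM at day 0 and 61.7 TPM at day 3 in mid-colon. Abat, which degrades GABA, had 179 and 170 TPM. The colonocyte markers summed to 15789 to 18225 TPM in mid-colon and 16460 to 18569 TPM in rectum at day 3, which overlapped with their day 0 ranges in both sections. This sum hides unequal changes of its genes.

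Of the 10 colonocyte markers, 3 fell and none rose at day 3 in mid-colon, where 0.375% of all genes were called, and 2 fell and 2 rose in rectum, where the share was 6.62%. The water channel Aqp8 was at 1469 to 1685 TPM in day 0 mid-colon and at 527, 668 and 834 TPM at day 3 (-1.27 ± 0.15, SE; log2). The other 2 that fell in mid-colon were the carbonic anhydrase Car4 (-1.13 ± 0.17, SE) and the keratin Krt20 (-0.87 ± 0.12, SE). In rectum Car4 (-1.32 ± 0.12, SE) and Aqp8 (-1.27 ± 0.19, SE) fell, while Car1, another carbonic anhydrase, and Slc37a2 rose (0.77 ± 0.14 and 0.37 ± 0.08, SE). The Kyat1 differences on the same scale, given as a description because they chose the gene, were -2.76 and -2.95. All 3 mid-colon calls were lost when low genes were not filtered out and without mouse 6 (adjusted p for Aqp8 0.0584). Those of Car4 and Krt20 were also lost without mouse 1, 2, 3 or 5, and that of Krt20 without mouse 7. The rectal calls of Aqp8 and Car4 held without any 1 mouse, whereas that of Car1 was lost without mouse 5 and that of Slc37a2 without mouse 1, 2, 3, 4, 5 or 6. The part of these markers in the level of Kyat1 at day 3 was not tested.

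At day 9, 3 of the 9 other aminotransferases were called higher and 4 lower in mid-colon, where 43.4% of all genes were called, led by Psat1 of serine synthesis (3.60 ± 0.27, SE; log2) and Abat (-2.44 ± 0.25, SE). In rectum, where the share was 53.5%, the counts were the same, with Abat at -3.25 ± 0.22 (SE) and Psat1 at 2.94 ± 0.20 (SE) and adjusted p-values of 9.24e-06 and 8.86e-06. The colonocyte markers summed to 6945 to 8773 TPM in mid-colon and 6497 to 8068 TPM in rectum on that day, below every day 0 sample. At days 14 and 20 they were at 8597 to 14145 TPM over the 2 sections, and mouse 14, with the highest Kyat1 of day 14, also had the highest sums of that day in both sections. Their part in the level of Kyat1 on days 9 to 20 was not tested.

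**Figure D2:**
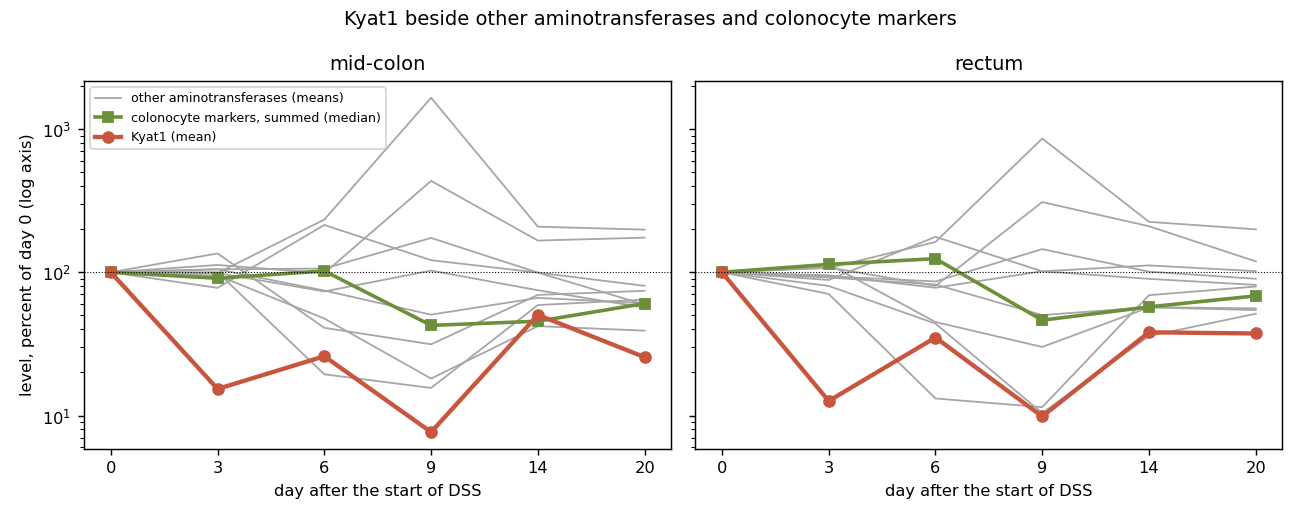
Level as percent of day 0 (log axis) by day in mid-colon and rectum: Kyat1 means in red, the median colonocyte marker sum in green, means of the other aminotransferases with at least 1 TPM at day 0 in grey. At day 3 Kyat1, chosen by its level on that day, is at 15.3% and 12.6% while the grey and green lines stay near 100. At day 9 Abat and Gpt are low as well.

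Acting with glutamine transaminase K, the enzymes that handle cysteine conjugates gave 7 tested genes of 8. Of these, 1 was called at day 3 in mid-colon and the same 1 in rectum, both times Dpep1, a renal-type dipeptidase that cleaves cysteinyl-glycine (-1.09 ± 0.18 and -0.78 ± 0.15, SE; log2), where 0.375% and 6.62% of all genes were called. The mid-colon call was lost without mouse 1, 3, 5, 6 or 7, the rectal one without mouse 3, 5 or 6, and both with low genes left in (0.146 and 0.0543). At day 9 in mid-colon 4 fell and none rose (43.4% of all genes were called), led by Dpep1 (-2.50 ± 0.33, SE) and the gamma-glutamyltransferase Ggt1 (-1.51 ± 0.35, SE). Their median was -1.04, beside 0.09 over all genes. In rectum at day 9, 3 fell and 1 rose (53.5% of all genes), with Ggt6 lowest at -2.11 ± 0.16 (SE).

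By likeness of pattern, 6847 genes with a mean of at least 8 TPM were ranked by Pearson's r with Kyat1 of log2(TPM + 1) over the 38 mid-colon and rectum samples, which share mice and day 0 groups. Among the 5 highest were Cyp4f16 (r = 0.866), Ptprr (0.853), Cyp4f14 (0.834) and Rab11fip4 (0.821). Cyp4f16 and Cyp4f14 are cytochrome P450 fatty acid hydroxylases of 1 gene family, Ptprr is a tyrosine phosphatase and Rab11fip4 a Rab11 effector. In mid-colon Cyp4f16 had means of 74.9, 47.5 and 22.3 TPM at days 0, 3 and 9. In the anus, where Kyat1 kept its level, Ptprr went from a mean of 9.48 TPM at day 0 to 0.611 TPM at day 6.

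Ido1, the interferon-inducible first enzyme of the pathway, rose while Kyat1 stood below its day 0 level. In day 0 mid-colon it was at 1.32, 1.09, 1.85 and 2.39 TPM, and at 27.0, 86.7 and 12.8 TPM at day 9 and 11.8, 198 and 202 TPM at day 14. In day 0 rectum it was at 1.24, 0.521, 0.439 and 1.00 TPM, and at 9.57, 219 and 96.2 TPM at day 9 and 28.8, 335 and 472 TPM at day 14. Every sample of these sections from day 3 on lay above every day 0 sample of its section. The courses of Ido1 and Kyat1 were not opposite on every day. In both sections the Ido1 mean was highest at day 14 (137 and 279 TPM), when Kyat1 had its highest mean after day 0 (92.7 and 52.2 TPM).

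At day 3 Ido1 lay above its day 0 range in both sections, at 2.46 to 3.05 TPM in mid-colon. The response of the 2 sections was not compared on that day. In rectum, Ido1 was at 1.74, 2.98 and 2.85 TPM at day 3, a log2 change of 0.97 ± 0.21 (SE, adjusted p = 0.0279), and at day 6 at 7.96, 6.31 and 11.6 TPM (2.41 ± 0.23, SE; adjusted p = 2.65e-04). In rectum it was also called at day 9 (5.10 ± 0.86, SE; adjusted p = 0.00111) and day 14 (6.57 ± 0.86, SE; 0.00698). In mid-colon it was called at day 6 (1.24 ± 0.36, SE; 0.0474), day 9 (3.63 ± 0.50, SE; 3.06e-04) and day 14 (4.94 ± 0.85, SE; 0.0183), whereas day 3 gave 0.51 ± 0.21 (SE; 0.418). In day 0 rectum only 2 of 4 samples reached 1 TPM, so Ido1 entered the rectal tests through the later samples. When low genes were not filtered out, its adjusted p-values in rectum at days 6, 9 and 14 were 0.00211, 0.00547 and 0.0226. The 3 weakest of these calls were marginal. The rectal day 3 call was lost without mouse 2, 3, 6 or 7. In mid-colon the day 6 call was lost without mouse 1, 2, 3, 8 or 10. The mid-colon day 14 call was lost without mouse 1, 2, 3, 15 or 16. With no filter on low values all 3 were lost as well, with adjusted p-values of 0.0724, 0.122 and 0.0649 in the same order.

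At day 20 the mice differed widely. Ido1 was at 16.0, 58.5 and 3.73 TPM in mid-colon and at 44.2, 293 and 3.73 TPM in rectum, and neither change passed (2.69 ± 0.65, SE, adjusted p = 0.0671; 4.49 ± 1.13, SE, 0.0505). Without mouse 19, the lowest in both, both passed, with adjusted p-values of 0.00387 and 0.00147. The rectal change also passed with a pseudocount of 0.1 TPM (0.0392).

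At days 9 and 20 the highest Ido1 came from the same mouse in every section. At day 9 mouse 12 had the highest Ido1 of its day in mid-colon (86.7 TPM), rectum (219 TPM), anus (0.859 TPM) and neo-epithelium (13.5 TPM). At day 20 mouse 18 was highest and mouse 19 lowest in all 4 sections. At day 14 mouse 14 was lowest in mid-colon, rectum and anus, but in neo-epithelium it stood at 83.1 TPM between mouse 15 (56.2 TPM) and mouse 16 (105 TPM). At day 3 the sections differed: mouse 5 was highest in mid-colon (3.05 TPM) and anus (6.13 TPM) but lowest in rectum (1.74 TPM). Mice 14 and 19, with the least Ido1 in the rectum, had the most Kyat1 there on their days, 78.0 and 101 TPM.

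**Figure D3:**
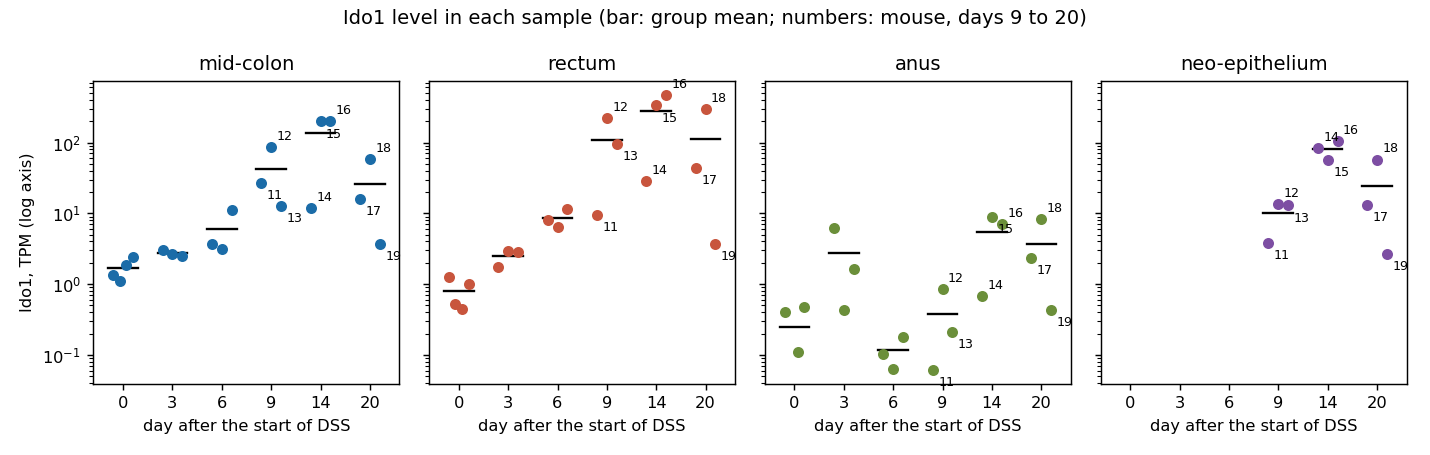
Ido1 TPM (log axis) in each sample by section and day, with a bar at each group mean and mouse numbers at days 9 to 20; 1 day 0 anus sample listed at 0 is off the axis. Mid-colon and rectum climb to day 14 (up to 202 and 472 TPM), and mouse 18 is highest and mouse 19 lowest of day 20 in every section.

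Interferon-gamma genes followed the same mice in rectum. Ifng, listed at 0 in 3 of 4 day 0 samples, was at 31.7 and 22.7 TPM in mice 12 and 13 of day 9 but at 0.246 TPM in mouse 11. At day 14 it was at 3.38 and 9.54 TPM in mice 15 and 16 against 0.0814 TPM in mouse 14. At day 20 it was at 3.87 TPM in mouse 18 and at 0 in mouse 19. Mouse 17 had only 0.0509 TPM of Ifng, though its rectal Ido1 was at 44.2 TPM. Cxcl9, a T-cell attracting chemokine, gave 2.41, 101 and 48.3 TPM in mice 11, 12 and 13, 0.800, 63.9 and 60.5 TPM in mice 14, 15 and 16, and 1.97, 44.9 and 0.599 TPM in mice 17, 18 and 19. In each of these triplets the sample with the least Ido1 also had the least Cxcl9.

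Of 11 genes of the interferon-gamma axis, 10 were tested at day 9, and 7 rose and 2 fell in rectum (53.5% of all genes were called), 5 rose and 2 fell in mid-colon (43.4%). The leaders were Cxcl10 (6.19 ± 1.11, SE; log2) and Gbp2 (4.57 ± 0.62, SE) in rectum and the same pair in mid-colon (2.98 ± 0.55 and 3.20 ± 0.52, SE). Ifngr2, a chain of the receptor itself, fell by 1.23 in rectum and by 1.36 in mid-colon. The medians were 1.72 and 1.00, beside 0.13 and 0.09 over all genes. Cxcl9 was at 0.102 to 0.225 TPM in day 0 rectum and at 0.0443 to 0.130 TPM in day 0 mid-colon. It reached the 1 TPM filter through its day 9 samples alone, so its part in these counts and medians supports nothing. The 3 genes most like Ido1 over the 38 samples were Ifi47 (r = 0.947), H2-Q7 (0.944) and Igtp (0.940), interferon-inducible GTPases and a class I histocompatibility gene whose family members are alike enough that reads may be split among them.

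Immune cell markers followed the order of Ido1 in part. The 7 T and NK cell markers summed to 1.46 to 3.77 TPM in day 0 rectum and to 15.0, 28.2 and 21.6 TPM at day 9, 10.6, 34.8 and 28.3 TPM at day 14 and 16.0, 21.6 and 3.54 TPM at day 20, in order of mouse number. On each of these days the mouse with the least Ido1 had the lowest T and NK sum, in rectum and in mid-colon. The 8 macrophage and monocyte markers summed to 163 to 235 TPM in day 0 rectum and to 1574, 1684 and 1789 TPM, 263, 711 and 803 TPM and 580, 528 and 359 TPM on the same days.

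In mid-colon the macrophage and monocyte sum went against Ido1 at days 14 and 20 but not at days 6 and 9. At day 6 the sums of 495, 431 and 685 TPM in mice 8, 9 and 10 ranked as Ido1 did. At day 9 the lowest sum (277 TPM, against 383 and 343 TPM) came from mouse 13, with the least Ido1. At day 14 it was highest in mouse 14, with the least Ido1 (313 TPM, against 257 and 271 TPM). At day 20 it was lowest in mouse 18, with the most (206 TPM, against 476 and 314 TPM). The 8 dendritic cell markers summed to 3.60 to 5.50 TPM in day 0 rectum, to 13.1, 24.8 and 25.9 TPM at day 9, 5.52, 23.6 and 18.0 TPM at day 14 and 20.5, 11.5 and 8.84 TPM at day 20, when mouse 17 and not mouse 18 was highest. Neutrophil markers summed to 605 to 737 TPM in day 0 rectum and to 14561, 14500 and 12637 TPM at day 9, highest in mouse 11 with the least Ido1. S100a8, 1 of these markers, was at 0 to 1.27 TPM in day 0 rectum, so other genes of the list made up that day 0 sum. No marker of the T and NK, macrophage and dendritic lists was at 0 in all samples of a group in mid-colon or rectum. The part of these cells in the level of Ido1 was not tested.

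In the anus Ido1 stayed at or under 8.92 TPM. It was listed at 0, 0.110, 0.410 and 0.474 TPM at day 0 and reached 8.92 and 7.00 TPM in mice 15 and 16 of day 14, and it was too low to be tested against day 0 on any day. In neo-epithelium it was higher than in the anus of the same mice by 2.96 ± 0.52 (SE; log2, adjusted p = 1.48e-04; 4.13e-04 when low genes were not filtered out). Against the rectum of the same mice it was at -1.72 ± 0.81 (SE; adjusted p = 0.0971). With the mouse as a block, a pairing that the design provides, this difference passed with an adjusted p of 0.00931.

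Shares of the summed TPM of the 9 genes depend on Kyat1, which made up most of the sum at day 0. Because Kyat1 was chosen by its level at day 3 against day 0, a higher Ido1 share follows in part from that choice. At day 3 the rectal Ido1 share was 7.52% ± 1.18 (SD, n = 3) at a mean of only 2.53 TPM. At day 20 the rectal shares ran from 3.01% to 84.7% for Ido1 and from 9.52% to 81.5% for Kyat1. In rectum Ido1 went from 0.526% ± 0.263 (SD, n = 4) at day 0 to 64.5% ± 34.6 (SD, n = 3) at day 9 and 65.6% ± 36.3 (SD, n = 3) at day 14. Kyat1 had 20.4% ± 22.0 (SD, n = 3) at day 9. The summed level went from 142 to 173 TPM at day 0 to 27.4 to 38.2 TPM at day 3 and to 122 to 535 TPM at day 14. In the anus Kyat1 kept 70.3% to 91.3% on all days.

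Ido1 spans chr8:24584136-24597009 on the minus strand (ENSMUSG00000031551). Its 2 transcripts begin in different first exons, and ENSMUST00000033956 held 79.7% of the gene's TPM in mid-colon and 80.8% in rectum. The other ring-opening enzymes were scarce. Ido2, the paralog next to it on chromosome 8, reached 1 TPM in 1 of 66 samples (1.09 TPM in neo-epithelium) and was tested in no comparison. Tdo2, best known from liver, stayed at or under 0.510 TPM in mid-colon, rectum and neo-epithelium but was at 1 TPM or more in 12 of 19 anus samples, up to 4.62 TPM in mouse 11 of day 9. In the anus 48.5% of the Tdo2 TPM came from ENSMUST00000151089, a non-coding transcript. The Tdo2 differences in the anus, up to 0.91 ± 0.40 (SE) at day 9, did not pass (adjusted p = 0.26).

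**Figure D4:**
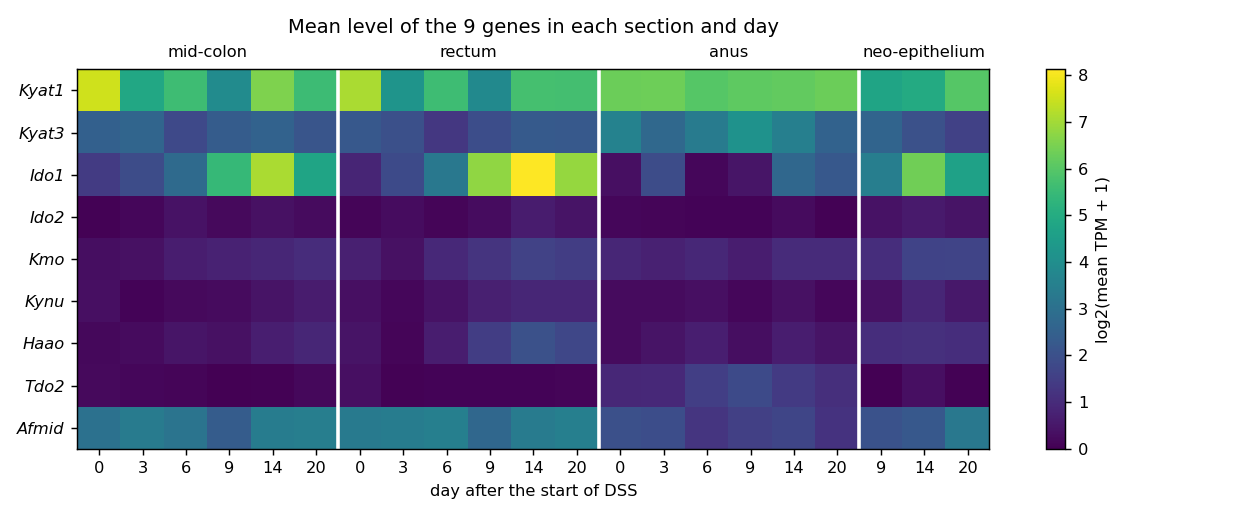
Mean level of the 9 genes, as log2(mean TPM + 1) by colour, in each section and day. Kyat1 is bright in day 0 mid-colon and rectum (means of 184 and 137 TPM) and Ido1 at day 14 (137 and 279 TPM), while Ido2, Kynu and, outside the anus, Tdo2 stay dark.

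Afmid, which releases kynurenine from its formyl precursor, fell in both mid-colon and rectum at day 9 and was not called against day 0 otherwise. In mid-colon it was at 7.48, 8.03, 5.97 and 7.20 TPM at day 0 and at 5.31, 3.44 and 3.68 TPM at day 9, a log2 change of -0.68 ± 0.20 (SE, adjusted p = 0.0187). In rectum it was at 8.35, 11.3, 7.99 and 8.67 TPM at day 0 and 5.91, 5.13 and 5.45 TPM at day 9 (-0.62 ± 0.15, SE; 0.00734). The groups did not overlap in either section, but the mid-colon call was lost without mouse 1, 2, 12 or 13. By day 20 the mid-colon values of 12.5, 9.38 and 8.42 TPM were above all of day 9 (1.11 ± 0.25, SE; 0.0156), a call lost without mouse 12, 13 or 17.

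Afmid also separated the sections. At day 0 it was lower in anus than in rectum by 1.47 on the log2 scale, a difference of -1.47 ± 0.30 (SE, adjusted p = 0.00215), with anus values of 2.28, 1.82, 1.55 and 6.17 TPM. Over days 9 to 20 neo-epithelium was at -0.73 ± 0.21 (SE; 0.00807) against rectum and 1.11 ± 0.32 (SE; 0.00696) against anus. The coding transcript ENSMUST00000073388 held 65.2% of the Afmid TPM in mid-colon and 49.9% in neo-epithelium. Most of the rest was assigned to non-coding transcripts. Afmid on chromosome 11 overlaps Gm20708 on its own strand, with which it may share reads. It also overlaps Tk1 on the other strand, whose reads could be told apart only if strand was used in the quantification, which the sources used here do not give.

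Kyat3, the paralog of Kyat1, was not called at day 3. It was at 4.34, 7.52 and 3.99 TPM in mid-colon, against 5.64, 3.52, 6.15 and 3.13 TPM at day 0, and at 3.03, 2.74 and 3.19 TPM in rectum, against 4.49, 3.01, 3.99 and 3.38 TPM. The adjusted p-values were 0.831 and 0.41, and the ranges overlapped with those of day 0 in both sections. It fell once against day 0, in rectum at day 6, to 1.04, 2.56 and 0.825 TPM (-0.98 ± 0.24, SE; 0.0107). The day 9 rectal difference of -0.30 ± 0.16 (SE, adjusted p = 0.145) passed after scaling with TMM factors (0.0444).

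Kyat3 was highest in the anus. At day 0 it was at 4.44, 21.8, 12.4 and 6.26 TPM there, above rectum by 1.16 ± 0.39 (SE; log2, adjusted p = 0.0255), a call lost without mouse 2 or 3 and with no filter on low values (0.0598). In neo-epithelium it was lower than in the anus by -1.31 ± 0.19 (SE; 2.04e-05). Within the anus it fell from 19.8, 10.4 and 19.3 TPM at day 9 to 4.08, 6.20 and 4.50 TPM at day 20 (-1.53 ± 0.27, SE; 0.0451), a call lost without mouse 11, 12, 13, 17 or 19 and with no filter on low values (0.108). In the anus 38.3% of the Kyat3 TPM came from ENSMUST00000128096, a non-coding transcript of 2 exons, against 15.0% in mid-colon. Kyat3 on chromosome 3 overlaps the antisense gene Gm15540.

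The branch towards quinolinic acid was low throughout. Kynu, kynureninase, reached 1 TPM in 4 of 66 samples, all of them rectal, with a maximum of 1.38 TPM. Kmo, kynurenine 3-monooxygenase, reached 1 TPM in 23 samples with a maximum of 3.91 TPM in the rectum of mouse 15. It was higher in neo-epithelium than in anus (0.55 ± 0.21, SE; adjusted p = 0.0298), a call lost without mouse 12, 15, 16 or 17, after TMM scaling (0.0538) and, at 0.05, with a pseudocount of 0.1 TPM. Haao, 3-hydroxyanthranilate dioxygenase, was at 0.477, 0.0890, 0 and 0.856 TPM in day 0 rectum and at 1.51, 1.57 and 2.33 TPM at day 9. It reached the 1 TPM filter through its day 9 samples alone, and its call after that filter supports nothing. In the fit without a filter the difference was 1.08 ± 0.24 (SE; adjusted p = 0.0112). At day 14 it was at 0.280, 6.30 and 2.48 TPM and at day 20 at 4.26, 2.38 and 0.385 TPM, again lowest in mice 14 and 19. Kmo on chromosome 1 overlaps Fh1 on the other strand.

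Counts of the 9 genes are read against the share of all tested genes that were called. In mid-colon at days 3, 6, 9, 14 and 20, limma called 0, 1, 2, 1 and 0 of the 3 tested genes other than Kyat1, where 0.375%, 14.9%, 43.4%, 4.36% and 1.56% of all genes were called. In rectum it called 1 of 3, 2 of 3, 3 of 5, 1 of 4 and 0 of 4, where the shares were 6.62%, 48.7%, 53.5%, 15.8% and 7.68%. The rectal count of day 9 includes Haao, and those of days 3 to 14 Ido1, which passed the filter through the later samples. Leaving out 1 mouse moved the shares of all genes too, for example from 4.84% to 44.2% in mid-colon at day 6. The 2 counts of 0 in mid-colon had 1 gene each at an unadjusted p under 0.05 and that of rectum had 2. In the anus 0 of 3, 4, 4, 4 and 5 tested genes were called, none of them at an unadjusted p under 0.05, where 0.0440%, 15.0%, 5.09%, 4.27% and 1.46% of all genes were called. All days of a section were compared with the same day 0 samples.

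At day 0, 2 of 2 tested genes other than Kyat1 differed between anus and rectum (60.3% of all genes) and 0 of 3 between rectum and mid-colon (1.79%; 1 at an unadjusted p under 0.05, Ido1). Over days 9 to 20, 1 of 6 differed between neo-epithelium and rectum (42.9% of all genes), or 2 with the mouse as a block, and 5 of 5 between neo-epithelium and anus (59.8%). From day 9 to day 20, 2 of 4 changed in mid-colon (20.6% of all genes), 0 of 7 in rectum (20.8%), 1 of 5 in anus (2.15%) and 0 of 5 in neo-epithelium (26.2%), with 2 each at an unadjusted p under 0.05 behind both counts of 0. The rectal counts of days 6 and 9 and the counts of the neo-epithelium and of anus against rectum at day 0 stand beside shares of 42.9% to 60.3%, so little can be read from how many of the genes were called there.

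The response against day 0 was compared between rectum and mid-colon for the genes other than Kyat1. None of 3, 5 and 5 tested genes differed at days 6, 9 and 20, where 0%, 6.55% and 0.00756% of all genes did, and 1, 1 and 0 of them had an unadjusted p under 0.05. Ido1 differed by 1.17 ± 0.47 (SE; log2, adjusted p = 0.735) at day 6, by 1.48 ± 1.10 (SE; 0.537) at day 9 and by 1.80 ± 1.45 (SE; 1.0) at day 20, each time with the larger change in rectum. Haao differed by 0.91 ± 0.30 (SE; 0.0885) at day 9. Over all genes, 730 of 12986 had an unadjusted p under 0.05 at day 6.

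Of 12 genes of other fates of tryptophan, 9 were tested in rectum at day 9, and 5 rose and 2 fell, where 53.5% of all genes were called. Tph1, the serotonin-making hydroxylase, rose by 2.50 ± 0.27 (SE; log2), and Maoa, which degrades serotonin, fell by 2.06. Wars, the interferon-inducible tryptophanyl-tRNA synthetase, was at 25.3 to 30.6 TPM at day 0 and at 71.6, 131 and 119 TPM at day 9. In mid-colon 2 of 8 rose and 3 fell on that day (43.4% of all genes), with Wars at 1.78 ± 0.33 (SE) and the methyltransferase Inmt at -1.60 ± 0.54 (SE). At day 3 none of 7 was called in mid-colon (2 at an unadjusted p under 0.05), and in rectum 2 of 9 rose and the amino acid carrier Slc7a8 fell by 1.14 (6.62% of all genes). Slc7a8 kept its call without any 1 mouse, but 1 or both of the others, Tph1 and Wars, lost theirs each time.

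Of 12 genes downstream and of NAD synthesis, 7 were tested. At day 9, 3 fell and 1 rose in rectum, where 53.5% of all genes were called, and 3 fell and 2 rose in mid-colon (43.4%). With 7 genes tested, little can be read from either count. Naprt, which uses nicotinic acid, fell by 1.87 and 1.40, Nadsyn1, the last step, fell by 1.75 in rectum, and Nampt of the salvage path was at 0.96 ± 0.23 (SE) in mid-colon. At day 6 in rectum 5 fell and none rose (48.7% of all genes), led by Nadsyn1 (-0.98 ± 0.14, SE) and Got2 (-0.92 ± 0.15, SE), a mitochondrial aminotransferase that can also make kynurenic acid. The day 6 median was -0.59, beside -0.27 over all genes.

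Of 9 genes of the aryl hydrocarbon receptor axis, 5 were tested in mid-colon and rectum. The antioxidant enzyme Nqo1 fell at day 6, by 2.01 in mid-colon and by 2.17 in rectum, while Tiparp, a target of the receptor, rose (0.84 ± 0.17 and 1.02 ± 0.19, SE; log2), in mid-colon not without mouse 10 (adjusted p = 0.0572). Tiparp was also called at day 9, at 1.73 ± 0.25 (SE) in rectum. Gpr35, the kynurenic acid receptor, rose in rectum at day 9 by 1.02 ± 0.21 (SE; adjusted p = 0.00333). Ahr itself was higher in neo-epithelium than in rectum (1.13 ± 0.13, SE; 3.43e-06), and Cyp1a1 was lower in neo-epithelium than in anus (-2.59 ± 0.22, SE).

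**Figure D5:**
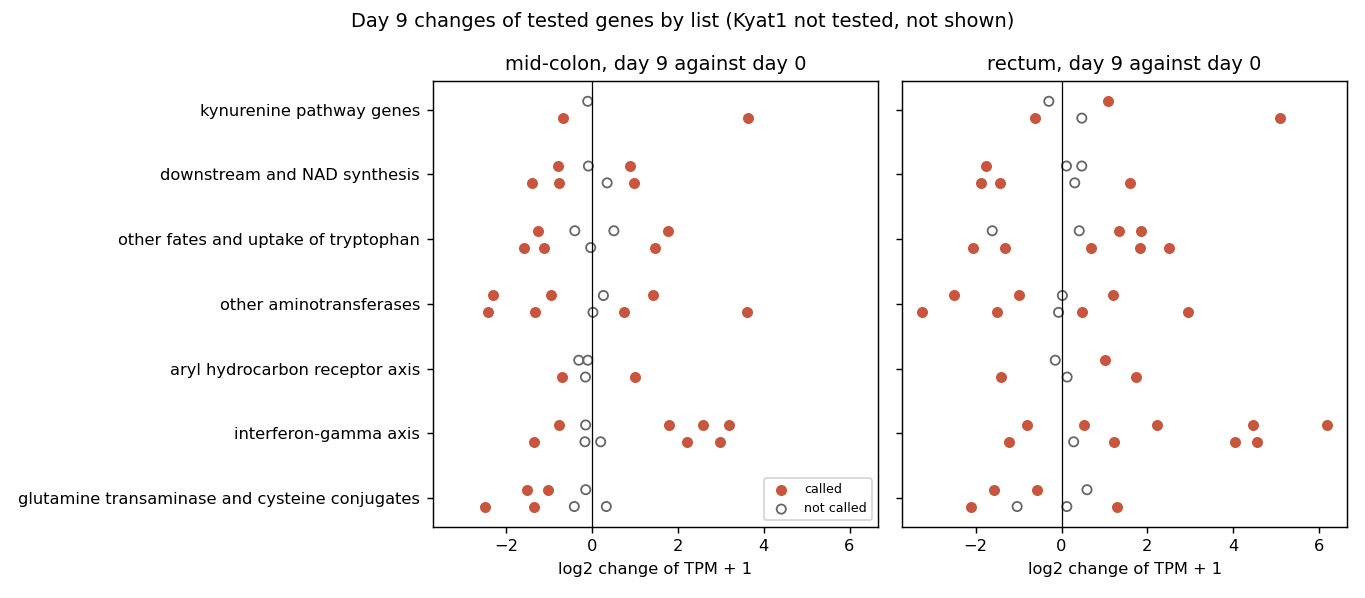
Log2 change of TPM + 1 at day 9 against day 0 in mid-colon and rectum for the tested genes of each list; filled points passed an adjusted p of 0.05, open points did not, and Kyat1 is not drawn. Ido1 (3.63 and 5.10) lies farthest right of the pathway's genes, and the interferon-gamma axis holds the highest points in rectum.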

How the data were processed

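RNA from 66 mouse samples was sequenced by the submitters as stranded single-end reads of 75 bases, per the labels' protocols. CASAVA, kallisto and the build mm10 are named, without versions, per the submitters' processing notes; the transcript index and the use of strand are not given in the sources used here. The authors deposited 1 table of TPM values per transcript and no counts. Of 126860 rows, 37344 without values and 1318 repeats of a transcript were dropped, and TPM was summed per gene (no repeat fell on the 9 genes). Transcripts without a gene name held 0.563% to 2.83% of TPM.

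Groups were compared with limma 3.58.1 (R 4.3.3) on log2(TPM + 1), with a mean-expression trend and Benjamini-Hochberg adjustment over all genes tested, at a threshold of 0.05. To be tested, a gene had to reach 1 TPM in a number of samples equal to the size of the smaller group. Fold changes are on the log2(TPM + 1) scale, which understates changes of low genes. Only the groups compared entered a fit; comparisons over days 9 to 20 had day as a covariate. Mice are the replicates, and in comparisons within a section p-values measure the spread between 3 or 4 mice a group. The comparisons of neo-epithelium with rectum or anus used 9 mice that gave both sections. In all comparisons between sections the main fit treated samples of the same mouse as independent. Sections of the same mouse are paired by the mouse numbers of the labels (mean correlation of paired deviations 0.052 to 0.265), and the fit with the mouse as a block is an alternative. Other alternatives were a pseudocount of 0.1 TPM, no filter, a filter of 5 TPM, TMM factors and leaving out each mouse. The fits were tested on simulated data.

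The 9 genes and all lists were chosen with earlier results of these data known. The text names all 9 genes, of each list mainly the 2 called genes with the largest change in a comparison, and the 5 and 3 genes most like Kyat1 and Ido1 with a usual symbol, of which 1 is not reported here. Named beyond that rule, after their values were seen, were Got1, Ifng, Cxcl9, Ifngr2, Gpr35 and the colonocyte markers called at day 3.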

Additional observations from a re-analysis of the deposited data

Results flagged for a closer look

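Among day 0 groups of 4 samples, 27 gene and section combinations could be searched for a sample far from the others, and 3 held one; chance gives about 1 in 20. Afmid in the anus had 1 sample at 6.17 TPM with the 3 others between 1.55 and 2.28 TPM. Ido2 in mid-colon had 1 sample at 0.125 TPM with the others at or under 0.0209 TPM. Kynu in the anus had 1 sample at 0.258 TPM with the others between 0.160 and 0.175 TPM. The 2 last lie below the filter of 1 TPM and enter no test.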

How the results depend on the processing

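The 24 log2 changes of single genes that were tested again kept their sign under every alternative run. Counts of called genes moved by more than 1.5 times as follows. Without a filter, which tests more genes, 0 were called in mid-colon at days 6 and 14, in rectum at day 3 and in anus from day 9 to day 20 (each 1 in the report), 1 in anus against rectum at day 0 and in mid-colon from day 9 to day 20 (each 2), and 9 in neo-epithelium against anus (5). With a filter of 5 TPM, which tests fewer, 0 were called in mid-colon at day 6 and rectum at day 3 (each 1), 1 in rectum at day 6 and in anus against rectum (each 2) and 2 in neo-epithelium against anus (5). A pseudocount of 0.1 TPM and TMM factors each called 1 in rectum at day 20 (0), and TMM factors called 1 in rectum from day 9 to day 20 (0). With the mouse as replicate block, 2 were called in neo-epithelium against rectum (1), and the block changed no other count by that much. Apart from the filters, the cause was not tested.

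Leaving out 1 mouse moved the count within 0 to 1 for anus at day 14, anus from day 9 to day 20, mid-colon at days 14 and 20, rectum at day 3, rectum from day 9 to day 20 and the day 9 response of rectum minus mid-colon, within 0 to 2 for mid-colon at day 6 and from day 9 to day 20, within 1 to 2 for mid-colon at day 9 and anus against rectum at day 0, within 1 to 3 for rectum at day 14 and neo-epithelium against rectum, within 0 to 3 for neo-epithelium from day 9 to day 20, and within 0 to 4 for rectum at day 20.

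TMM factors shifted the median log2 change of all genes by up to 0.234 (rectum, day 6), where Kyat1 went from -1.50 to -1.22. The other 9 Kyat1 differences against day 0 moved by less than the spread within the later group under all alternatives. Counts over all genes were less stable: TMM factors called 143 genes in mid-colon at day 3 (45 in the report), 1268 at day 14 (529) and 661 at day 20 (189), 1712 in rectum at day 20 (973), 1210 in anus at day 9 (692), 3 in anus at day 3 (6), 106 between rectum and mid-colon (216) and 0 for the day 20 response (1). Without a filter the counts were 4, 1022, 239 and 22 in mid-colon at days 3, 6, 14 and 20 (45, 1785, 529 and 189), 1189 and 202 in rectum at days 14 and 20 (2017 and 973), 0, 373, 246 and 59 in anus at days 3, 9, 14 and 20 (6, 692, 588 and 201), 34 between rectum and mid-colon (216), 1482, 1624 and 12 from day 9 to day 20 in mid-colon, rectum and anus (2534, 2718 and 288), and 2 and 3 for the day 6 and day 20 responses (0 and 1). With 5 TPM they were 318 in mid-colon at day 14, 3 in anus at day 3, 119 between rectum and mid-colon and 0 for the day 20 response. The block gave 349 between rectum and mid-colon and 76 and 5 for the day 6 and day 20 responses, and a pseudocount of 0.1 TPM gave 444 for the day 9 response (885). Leaving out 1 mouse moved the counts over all genes in mid-colon within 7 to 71, 596 to 5248, 4133 to 5991, 62 to 1365 and 31 to 1200 at days 3, 6, 9, 14 and 20, and in rectum within 417 to 1282, 4818 to 5844, 6196 to 7562, 386 to 5165 and 52 to 2873. In anus against day 0 they stayed within 0 to 12, 876 to 2130, 315 to 827, 162 to 557 and 25 to 237, from day 9 to day 20 within 1129 to 2384, 668 to 2660, 2 to 406 and 1021 to 4122 in mid-colon, rectum, anus and neo-epithelium, and within 1 to 166 between rectum and mid-colon at day 0. Depth is unknown, so the limits of the low genes cannot be given.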
